A study of Mus musculus with 3 samples.

Results

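Asparagine synthetase (Asns), the stress factors CHOP (Ddit3) and Xbp1, and 7 other genes of the amino acid and endoplasmic reticulum (ER) stress responses were read in embryoid bodies of mouse embryonic stem cells with variant or wild-type human BRCA1. The 10 genes were chosen by name: Ddit3, Ddit4, Atf3, Atf4, Asns, Chac1, Trib3, Shmt2, Xbp1 and Hspa5, which are ATF4, targets of ATF4, and factors or targets of the unfolded protein response. They have 23 probe sets with a single gene symbol, out of 34945 such probe sets for 18193 genes. The RQ bodies carried human BRCA1 with R1699Q in the series design, which the label of that array writes as R1669Q, the MI bodies carried M1652I, and the WT bodies carried wild-type human BRCA1. All 3 were made from strain 129S7/SvEv Brd-Hprt b-m2 and collected on day 7 of suspension culture, after the stem cells had been separated from feeder cells on a gelatinized plate. BRCA1 is a DNA repair protein and tumour suppressor, and embryoid bodies are aggregates in which stem cells start to differentiate. Each genotype was measured on 1 Affymetrix array, so there are no replicates, no difference below has a replicate check or a p-value, and values describe these 3 arrays.

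Cells that run short of amino acids or accumulate unfolded protein in the ER phosphorylate the translation factor eIF2 alpha, through the kinases GCN2 (Eif2ak4) and PERK (Eif2ak3). This lowers protein synthesis in general but raises translation of ATF4, a transcription factor that induces enzymes and transporters for amino acids together with the factors CHOP, ATF3 and TRIB3. Unfolded protein also acts through IRE1 (Ern1), which splices the Xbp1 transcript, and through ATF6, and these branches induce ER chaperones such as BiP (Hspa5). ATF4 activity and Xbp1 splicing are set largely after transcription, so the mRNA levels of Atf4 and Xbp1 given here do not read them.

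Values are deposited log2 signals, so a difference of 1 is 2-fold. Column medians were 6.28 in RQ, 6.35 in MI and 6.29 in WT, and the median of all values, log2 6.31, was used as a level filter on the mean over the 3 arrays. A gene with several probe sets is given by the one with the highest mean. All 10 genes passed the filter, as did 22 of their 23 probe sets, and 12023 genes in all passed. The MI array was compressed at high signal: its median difference from WT was 0.10 for genes at levels of 6 to 7 and -0.35 at levels of 9 to 10. A lowess correction subtracts the trend of all genes with level, and values after it are given beside the deposited differences of MI that the results turn on. Genes with several probe sets above the filter, 4344 in all, had a median range between their probe sets of 0.24 for RQ against WT, 0.24 for MI against WT and 0.27 for RQ against MI. The 18 hybridization spike probe sets had median differences from WT of -0.64 in RQ and -0.80 in MI, and whether this bears on the values below was not tested.

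Matrix, endocytosis and keratin markers of primitive endoderm and basement membrane were lower in both variants. Of 14 markers in this list 12 passed the filter, and 10 were at least 2-fold lower than in WT on each variant array, also after the lowess correction in MI. These calls are those of the brightest probe sets. Dab2, Lamb1, Sparc and Lrp2 each also had a probe set less than 2-fold from WT. Its differences from WT were -0.64, -0.14, -0.25 and -0.10 in RQ, and -0.49, 0.10, -0.27 and 0.02 in MI, in that order of genes. None of the 4 endoderm transcription factors listed was among these 10, since Gata6 (-0.09 in RQ and 0.04 in MI) and Sox17 (-0.26 in RQ and 0.01 in MI) were close to WT on their brightest probe sets, although another probe set of each was lower (differences from WT for Gata6 of -1.06 in RQ and -1.08 in MI, and for Sox17 of -1.43 in RQ and -1.47 in MI). The summed linear signal of the list was 2055 in RQ and 2415 in MI, against 17756 in WT, and Gata4 and Sox7 did not pass the filter. Of 10 pluripotency markers, all above the filter, 6 in RQ and 3 in MI were past 2-fold above WT, and 2 in MI were past 2-fold below it, but after the lowess correction MI had 4 above and 1 below. Their summed signal was 24644 in RQ and 13077 in MI, against 12070 in WT. Of 10 mesenchymal and fibroblast markers 7 passed the filter, and 5 in MI were past 2-fold above WT with and without the correction. These were Vim, Dcn, Col1a2, S100a4 and Cd44, but Dcn, Col1a2 and Cd44 each had a probe set close to WT (0.09, -0.07 and -0.06). The other counted markers were not higher past 2-fold in MI, namely Fn1 (-0.40, or -0.02 after the correction) and Col3a1 (0.09). Summed signals of the list were 2219 in RQ and 5764 in MI, against 2505 in WT, where Fn1 was the brightest marker (10.70). Col1a1, Thy1 and Twist1 did not pass the filter. Over all 12023 genes the shares past 2-fold as deposited were 1.7% above WT and 1.49% below it in RQ. In MI they were 0.524% above and 2.58% below. In such bulk samples fewer cells of a type and less RNA per cell cannot be told apart, and the part of these markers in the differences below was not tested.

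In RQ against WT the 10 genes did not share a direction. Ddit3 was 2.58-fold lower and Xbp1 2.05-fold higher, Asns and Shmt2 were each higher by just under 2-fold, and Atf4 itself was within 0.20 of WT on each of its probe sets. The count past 2-fold was thus 2 of 10, where 3.19% of the 12023 genes were past 2-fold in either direction (204 or 1.7% higher and 179 or 1.49% lower). At 1.5-fold it was 4 of 10, where 11.1% of all genes lay. The median difference was 0.07, with 5 genes above 0 and 5 below, and the median of all genes was 0.01. The 10 genes were chosen as a stress list with such values already known, so these shares describe them and are not evidence of enrichment.

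In MI against WT, Ddit4 was 2.37-fold lower and was the single gene of the 10 past 2-fold, where 3.1% of all genes were (63 or 0.524% higher and 310 or 2.58% lower, but 105 higher and 191 lower with quantile normalization). This call of Ddit4 was lost with quantile normalization (-0.84) and after the lowess correction (-0.83), and Xbp1, higher in MI, was then the single gene past 2-fold (1.22 and 1.15). At 1.5-fold, Xbp1 was higher and Ddit3 and Ddit4 were lower, 3 of 10 where 10.4% of all genes lay. The median difference was -0.23 as deposited and -0.16 after the lowess correction, and that of all genes was 0.05 and -0.00. In RQ against MI, Shmt2 was 2.56-fold higher, 1 of 10 where 2.6% of genes were past 2-fold (253 or 2.1% higher and 60 or 0.499% lower, but 116 higher and 102 lower with quantile normalization, and 146 higher and 78 lower after the lowess correction). At 1.5-fold Asns, Shmt2 and Ddit4 were higher and Ddit3 lower, 4 of 10 where 11.6% of all genes lay. The median difference was 0.20 as deposited and 0.12 after the correction, against -0.03 and 0.00 for all genes.

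**Figure D1:**
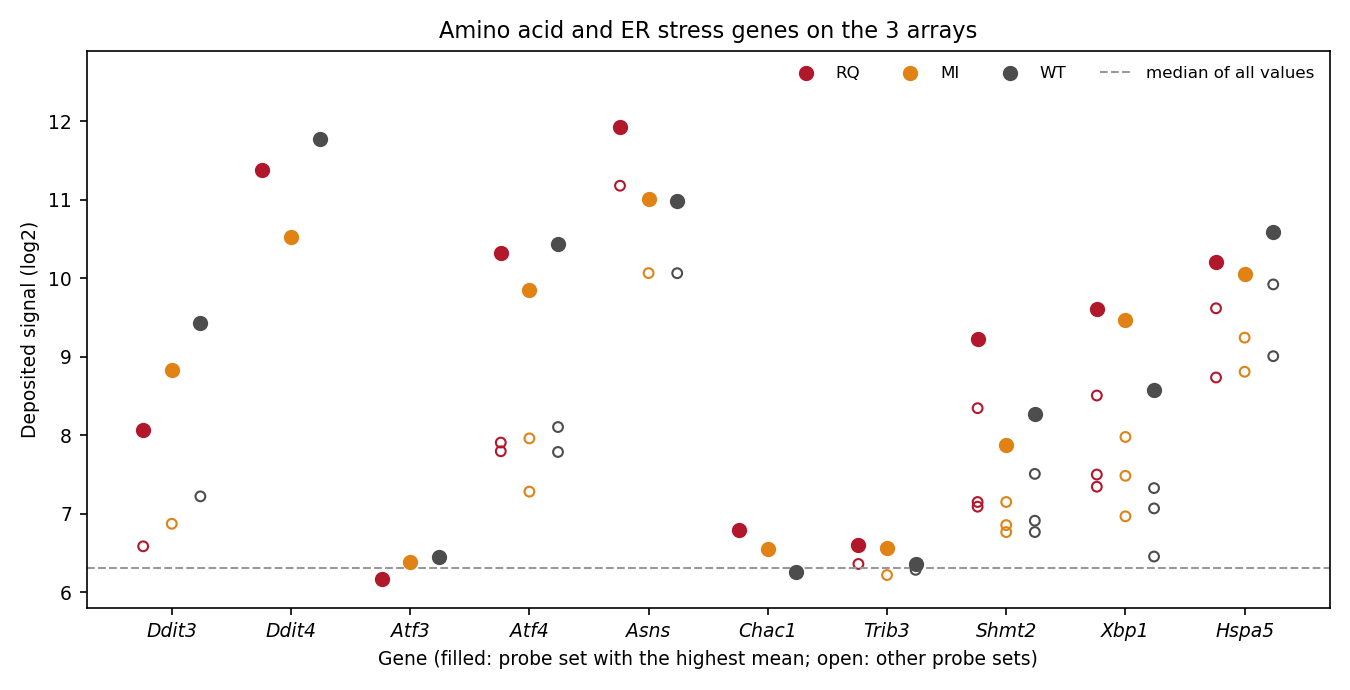
Deposited log2 signal (vertical axis) of each gene (horizontal axis) on the RQ (red), MI (orange) and WT (grey) arrays, with 1 array per genotype. Filled points are the probe set with the highest mean, open points the gene's other probe sets, and the dashed line the median of all values (6.31). Ddit3 is lowest in RQ and highest in WT on both probe sets, Asns stands apart in RQ, Xbp1 is lowest in WT, and Atf3, Chac1 and Trib3 lie close to the line.

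Atf4, the central transcription factor of the amino acid response, was read at 10.33 in RQ, 9.86 in MI and 10.44 in WT. RQ and WT thus differed by -0.11, while MI was 0.58 below WT. Of its other probe sets, one read 7.80 in RQ, 7.96 in MI and 7.79 in WT, and the other 7.91 in RQ, 7.28 in MI and 8.10 in WT. The probe sets disagreed on MI, with differences from WT of -0.82 to 0.17, and the correction for level moved the value of the brightest to -0.22. Atf4 therefore showed no difference that all its probe sets shared.

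Ddit3 encodes CHOP, a transcription factor that ATF4 induces and that promotes cell death in prolonged ER stress. It read 8.06 in RQ, 8.83 in MI and 9.43 in WT, and its second probe set read 6.58 in RQ, 6.87 in MI and 7.22 in WT. On both, RQ was lowest, MI intermediate and WT highest. The difference of RQ from WT was -1.37 on the brighter probe set and -0.64 on the dimmer one, and among the 12023 genes the value of -1.37 has rank 102 from the lowest. For MI against WT the differences were -0.60 and -0.35, and the brighter became -0.34 after the lowess correction. On the brighter probe set RQ was below MI by 0.77 (difference -0.77, and -1.01 after the correction). On the dimmer one RQ minus MI was -0.29.

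Atf3, a stress-induced factor of the same family, read 6.17 in RQ, 6.38 in MI and 6.45 in WT on its single probe set. These values straddle the level filter, and its differences from WT of -0.28 in RQ and -0.06 in MI are those of a gene near background.

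Xbp1 encodes the factor that, once its transcript is spliced by IRE1, induces genes of ER folding and of degradation. Its brightest probe set read 9.61 in RQ, 9.47 in MI and 8.57 in WT, so both variants were above WT and close to each other. All 4 probe sets were above WT in both variants. Their differences were 0.17 to 1.44 in RQ and 0.16 to 0.91 in MI. The lowest of each range came from the one probe set whose identifier does not mark it as shared between transcripts (it ends in _at), which read 7.499 in RQ, 7.48 in MI and 7.33 in WT. The brightest probe set, of the kind that can read several transcripts (_s_at), was 1.03 above WT in RQ and 0.90 in MI, and 1.0005 and 1.15 after the lowess correction. In RQ it thus lay at the 2-fold limit, and it was 0.98 with quantile normalization. RQ minus MI was 0.13, and -0.21 after the correction. Spliced and unspliced Xbp1 are not told apart here.

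**Figure D2:**
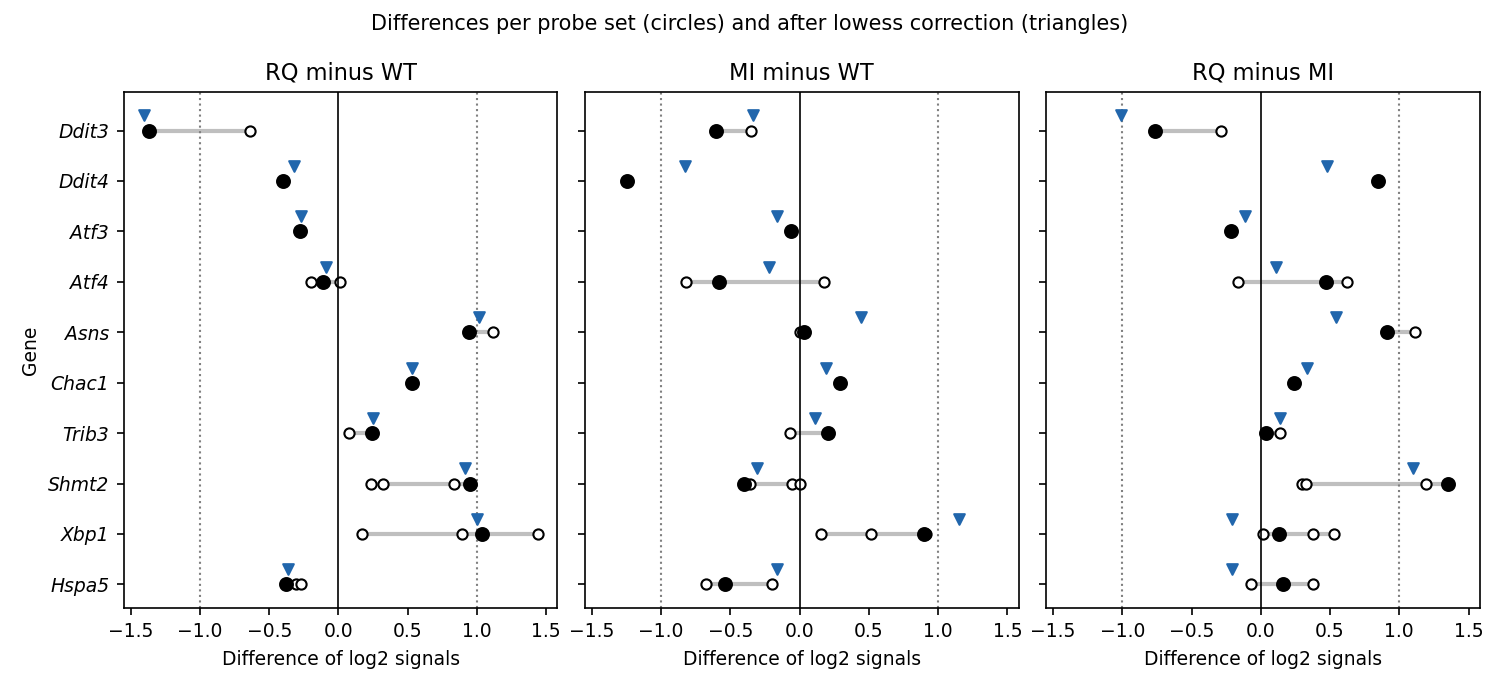
Difference of log2 signals (horizontal axis) for each gene (vertical axis) in RQ minus WT, MI minus WT and RQ minus MI. Filled circles are the brightest probe set, open circles the others, grey bars their range, triangles the brightest after the lowess correction, and dotted lines 2-fold. Ddit3 is below 0 in all 3 panels, Asns and Shmt2 are above 0 on every probe set in RQ minus WT and RQ minus MI, and the 4 Xbp1 probe sets spread from 0.17 to 1.44 in RQ minus WT.

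Asns makes asparagine from aspartate and glutamine and is a classical target of ATF4. It read 11.93 in RQ, 11.01 in MI and 10.98 in WT, and its second probe set read 11.18 in RQ, 10.07 in MI and 10.06 in WT. RQ stood apart on both probe sets, while MI and WT differed by 0.03 and 0.00. RQ was 1.93-fold above WT on the first probe set (difference 0.95, or 1.01 after the lowess correction) and 1.12 on the log2 scale on the second. RQ minus MI was 0.91 and 1.11. The equality of MI and WT is one of deposited values: with the trend of genes at this level subtracted, MI was 0.44 above WT and RQ 0.55 above MI.

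Shmt2 is the mitochondrial serine hydroxymethyltransferase, which turns serine into glycine and a one-carbon unit. Its brightest probe set read 9.23 in RQ, 7.87 in MI and 8.27 in WT, and the next read 8.34 in RQ, 7.15 in MI and 7.51 in WT. Both had RQ highest and MI lowest. RQ was above WT by 0.95 and 0.84 on these probe sets, and by 0.24 and 0.32 on the pair that read near 7. MI was below WT by up to 0.40 (differences of -0.40 to -0.00 over the 4 probe sets, and -0.31 for the brightest after the correction). RQ minus MI was 1.35 for the brightest probe set and 1.10 after the correction, and 0.79 for the mean of the 4.

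The shared DNA sequence elements of these genes were looked for in their promoters, from 250 bases before to 50 bases after the start in RefSeq (GRCm38.p6), and all 10 genes had a promoter there. The element that ATF4 binds with C/EBP factors, searched as TGATGNAA on both strands, was present in 4 of 10, namely Asns, Chac1, Trib3 and Atf3, and in 3.97% of 32851 promoters. The ER stress response element, CCAAT and CCACG separated by 9 bases, was present in Hspa5 alone, and in 0.119% of all promoters. The XBP1 element TGACGTGG was present in 0 of 10 and in 0.676% of all promoters. Because the 10 genes were listed as ATF4 and unfolded protein response genes, these shares describe them and are not evidence of enrichment. The ATF4 element lies at the start of the gene in Asns, from base 23 before it, and from base 15 after the start in Trib3. In Chac1 it begins 193 bases and in Atf3 110 bases before the start, and in these and Trib3 it reads on the opposite strand. The matches are shown in capitals because they mark which of the 10 genes carry an ATF4 element near the start. The windows, all 5' to 3' along the gene, are chr2:119351041-119351064 (plus strand) for Chac1, chr2:152344031-152344054 (minus) for Trib3 and chr1:191183428-191183451 (minus) for Atf3.
Chac1: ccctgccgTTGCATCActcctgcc
Trib3: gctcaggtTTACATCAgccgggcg
Atf3: tctcgcacTTGCATCAccaagtcc
The whole Asns window, chr6:7693160-7693459 on the minus strand, is given because Asns carries the element and was higher in RQ on both probe sets.
Asns: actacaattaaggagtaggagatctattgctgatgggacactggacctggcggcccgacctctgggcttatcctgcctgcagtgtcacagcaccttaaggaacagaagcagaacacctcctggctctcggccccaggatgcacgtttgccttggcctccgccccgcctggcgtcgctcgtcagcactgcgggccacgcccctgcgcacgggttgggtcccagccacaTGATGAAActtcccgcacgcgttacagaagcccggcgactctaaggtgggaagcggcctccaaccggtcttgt
The whole Hspa5 window is chr2:34771840-34772139 on the plus strand, with its ER stress element beginning 65 bases before the start.
Hspa5: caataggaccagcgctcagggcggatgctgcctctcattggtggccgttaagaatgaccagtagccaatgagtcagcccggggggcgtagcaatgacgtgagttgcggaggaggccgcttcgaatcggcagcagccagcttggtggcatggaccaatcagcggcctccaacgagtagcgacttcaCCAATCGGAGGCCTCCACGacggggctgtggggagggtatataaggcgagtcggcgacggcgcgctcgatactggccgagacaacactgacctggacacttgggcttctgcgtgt
Genes with the ATF4 element did not share a direction, with RQ minus WT of 0.95 for Asns, 0.53 for Chac1, 0.24 for Trib3 and -0.28 for Atf3. Shmt2, which was also higher in RQ, has no match in this window. A match in letters is not evidence of binding.

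Chac1 degrades the antioxidant glutathione and is induced by ATF4 in several stresses. It read 6.79 in RQ, 6.55 in MI and 6.26 in WT on 1 probe set, so that RQ was 0.53 and MI 0.29 above WT. The WT value lies below the level filter, where signals are compressed towards background. Trib3, a pseudokinase induced by CHOP and ATF4 that restrains them in turn, read 6.61 in RQ, 6.57 in MI and 6.36 in WT, with differences from WT of 0.24 and 0.21. Its second probe set, the one of the 23 below the filter, differed from WT by 0.07 in RQ and -0.07 in MI. Both genes were thus read near background, and the differences of Trib3 are close to the median range between probe sets of 1 gene.

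Ddit4 encodes REDD1, an inhibitor of the growth kinase complex mTORC1 that is induced by hypoxia, glucocorticoids and ATF4. It read 11.38 in RQ, 10.53 in MI and 11.78 in WT on its single probe set, so MI was lowest. The difference from WT was -1.25 in MI and -0.40 in RQ. High signals are those most lowered on the MI array, and the MI difference was -0.83 after the lowess correction and -0.84 with quantile normalization, short of 2-fold. RQ minus MI was 0.85, and 0.48 after the correction.

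Hspa5 encodes BiP, the main chaperone of the ER lumen and a standard readout of the unfolded protein response. It read 10.21 in RQ, 10.05 in MI and 10.59 in WT. Its other probe sets read 9.62 in RQ, 9.24 in MI and 9.92 in WT for one, and 8.74 in RQ, 8.81 in MI and 9.01 in WT for the other. Both variants were below WT on all 3 probe sets, by differences of -0.38 to -0.27 in RQ and of -0.68 to -0.20 in MI. After the lowess correction the value in MI was -0.16 and that in RQ -0.36.

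**Figure D3:**
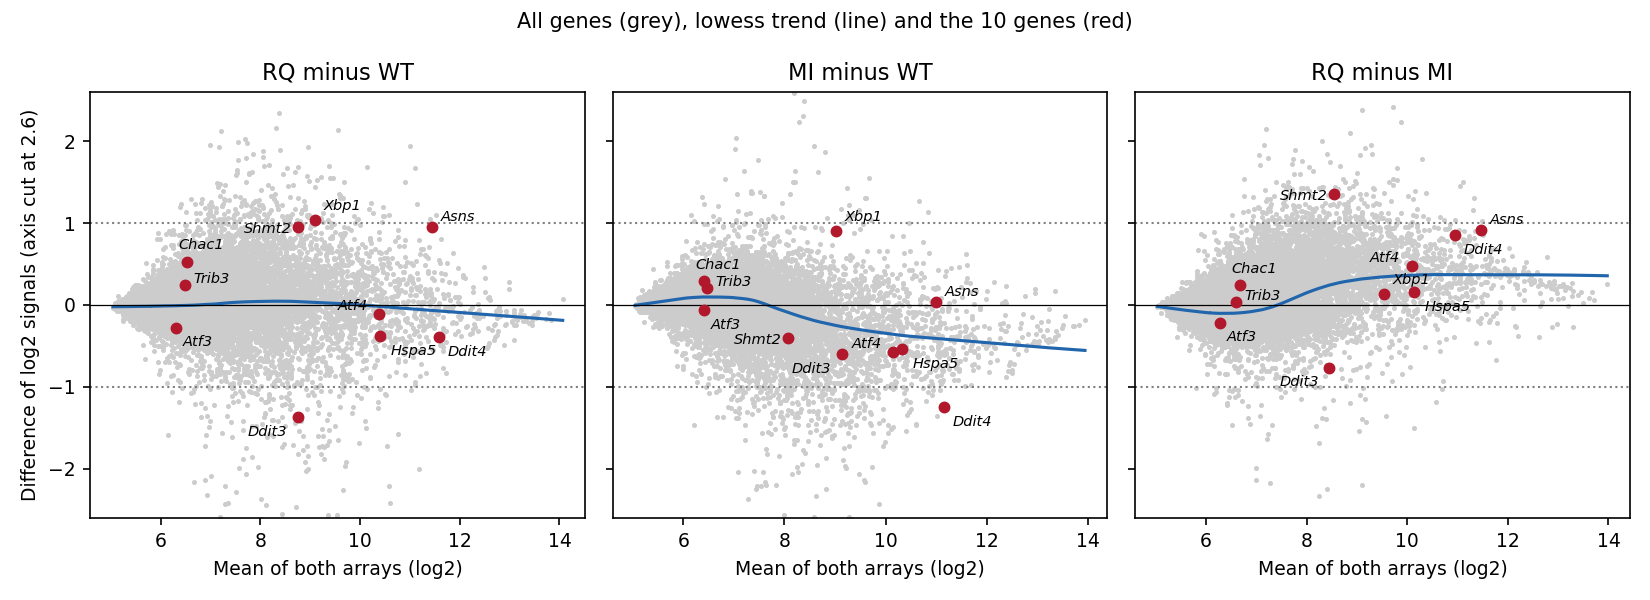
Difference of log2 signals (vertical axis, cut at 2.6) against the mean log2 signal of both arrays (horizontal axis) for all 18193 genes (grey), with the lowess trend (blue line) and the 10 genes (red). In RQ minus WT the trend stays near 0, while in MI minus WT it falls below 0 at high signal, where Atf4, Hspa5, Asns and Ddit4 lie.

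The wider pathways were read from 9 further lists, counted over members above the level filter. Of all 12023 genes, 51.8% were above 0 and 48.2% below in RQ against WT, 58.1% above and 41.9% below in MI against WT, and 45.6% above and 54.4% below in RQ against MI. After the lowess correction the shares above 0 were 50.7%, 49.3% and 50.7% for these comparisons. The lists are small, and their counts are descriptions to be read beside these shares. Enzymes of serine, glycine and one-carbon metabolism, the pathway of Shmt2, had 6 of 9 above 0 in RQ against WT, a count not far from the share of all genes, with a median of 0.29 and none past 2-fold. In MI against WT 3 of 9 were above 0, with a median of -0.23 that was -0.02 after the lowess correction. Gldc, the glycine-cleaving decarboxylase, read 8.28 in RQ, 7.31 in MI and 8.52 in WT, and its difference of -1.20 in MI (-1.14 after the correction) was the one past 2-fold. RQ minus MI had a median of 0.62 with 8 of 9 above 0 as deposited, and 0.41 with 6 of 9 above 0 after the correction.

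Of the amino acid transporters, 2 of 10 in RQ were past 2-fold above WT, where 1.7% of all genes were, and the median was 0.22. Slc7a3, a carrier of cationic amino acids, read 7.93 in RQ, 6.22 in MI and 6.45 in WT, so that it lay close to the level filter in MI and WT. Slc38a2, the amino acid-responsive carrier SNAT2, read 8.95 in RQ, 7.32 in MI and 7.53 in WT, but its 3 probe sets ranged from -0.64 to 1.42 for RQ minus WT. Slc3a2, the heavy chain shared by several exchangers, read 9.63 in RQ, 8.57 in MI and 9.80 in WT, and its difference of -1.23 in MI was -0.96 after the correction. In MI against WT the list had a median of -0.06, with 1 of 10 at least 2-fold lower (2.58% of all genes) and none higher. After the correction the median was -0.15 and none was past 2-fold.

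Aminoacyl-tRNA synthetases, many of which ATF4 induces, were above 0 in 11 of 12 in RQ against WT, where 51.8% of all genes were, with a median of 0.32 and none past 2-fold. Among the 11, Wars (0.001), Eprs (0.05), Iars (0.06) and Gars (0.09) were close to WT on their brightest probe sets. In MI 10 of 12 were below 0, where 41.9% of all genes were, with a median of -0.33, which became 8 of 12 and -0.21 after the lowess correction. RQ minus MI was 1.23 for Lars, the leucyl-tRNA synthetase, which read 9.13 in RQ, 7.90 in MI and 8.66 in WT. It was 1.02 for Gars, the glycyl-tRNA synthetase (9.90 in RQ, 8.88 in MI and 9.82 in WT). After the correction these became 0.97 and 0.69, and no member was then past 2-fold in RQ against MI, while 11 of 12 were above 0.

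Enzymes of proline, glutamine, cysteine and transamination had 8 of 10 listed genes on the arrays with a single symbol, and 5 of 8 were above 0 in RQ against WT (median 0.19). In MI against WT 1 of 8 was above 0 (median -0.20), which became 4 of 8 and -0.04 after the lowess correction. Glul, which makes glutamine, was the exception in size: it read 7.76 in RQ, 7.98 in MI and 10.57 in WT, 7.01-fold lower in RQ and 6.03-fold lower in MI than in WT (-2.59 in MI, and -2.31 after the correction). Its second probe set was also lower, with differences of -1.39 in RQ and -2.06 in MI. The primitive endoderm markers described above were lower in the same bodies, and their part in this difference was not tested.

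Among regulators of eIF2 alpha 5 of 7 listed genes could be counted, with a median of 0.31 in RQ and 0.11 in MI against WT (0.03 in MI after the correction) and none past 2-fold. Ppp1r15b, the constitutive phosphatase subunit, had the largest difference, reading 8.86 in RQ, 8.01 in MI and 8.01 in WT. Its 2 probe sets ranged from 0.31 to 0.86 for RQ minus WT and from 0.05 to 0.85 for RQ minus MI. Ppp1r15a, the subunit induced by ATF4 and CHOP and named here after its values were seen, read 7.31 in RQ, 7.17 in MI and 7.94 in WT. Eif2ak4, which encodes GCN2, was below the filter. The list of other ATF4 and CHOP partners and targets had 10 of 13 genes counted, 3 above 0 in RQ (median -0.19) and 4 in MI (median -0.10, or -0.06 after the correction), and none past 2-fold. Bbc3, the cell death gene PUMA, led it as deposited with 8.47 in RQ, 8.13 in MI and 8.83 in WT. Its difference of -0.70 in MI was -0.53 after the correction and was then not the largest of the list.

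ER chaperones and folding enzymes, the group of Hspa5, were below WT in 11 of 14 genes in RQ, where 48.2% of all genes were, and in 11 of 14 in MI, where 41.9% were. The medians were -0.20 in RQ and -0.41 in MI, and -0.22 and -0.23 after the lowess correction, with 9 of 14 then below 0 in MI, where 50.7% of all genes were. None was past 2-fold. P4hb, protein disulfide isomerase and also a subunit of the collagen prolyl hydroxylase, came closest, with 10.62 in RQ and 10.60 in MI, against 11.57 in WT, and its difference of -0.97 in MI was -0.55 after the correction. Basement membrane markers were lower in the same bodies, as given above, and their part in these values was not tested. Genes of ER-associated degradation showed no shared direction, with 6 of 10 above 0 in RQ (median 0.06) and 5 of 10 in MI (median -0.01, or 0.01 after the correction). Derl2, a component of the retrotranslocation machinery, read 7.06 in RQ, 7.72 in MI and 6.72 in WT, and its second probe set gave 0.21 for MI minus WT where the first gave 1.002, or 0.93 after the correction. Of the sensors of unfolded protein, 6 of 7 were counted, with medians of 0.07 in RQ and -0.05 in MI (-0.14 in MI after the correction). Mbtps1, the site-1 protease that cleaves ATF6, read 8.41 in RQ, 7.04 in MI and 7.26 in WT, but its 3 probe sets ranged from -0.43 to 1.15 for RQ minus WT.

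**Figure D4:**
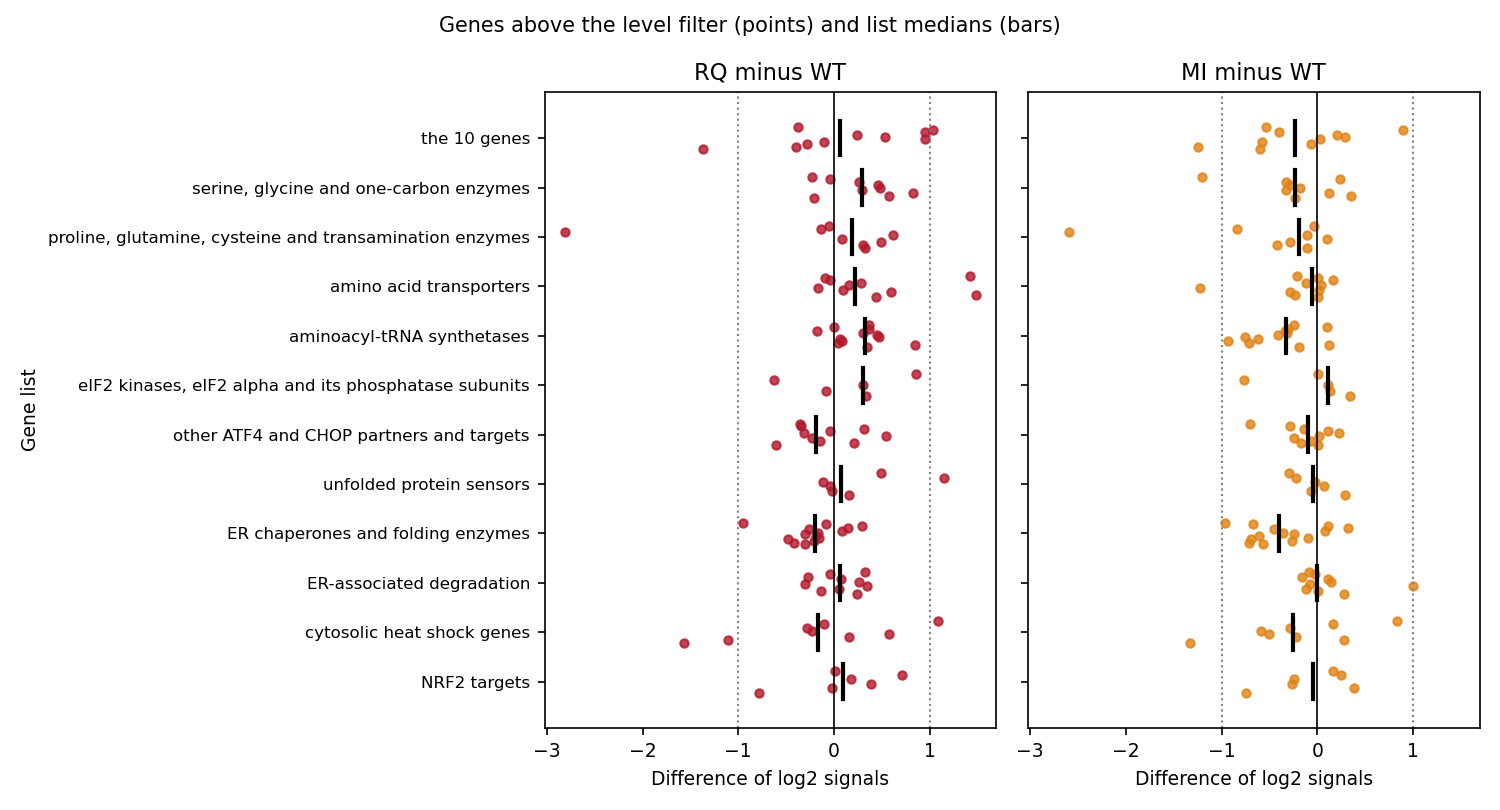
Difference of log2 signals (horizontal axis) in RQ minus WT (red) and MI minus WT (orange) for the 10 genes and 11 related gene lists (vertical axis), with a point for each gene above the level filter, a black bar at the list median and dotted lines at 2-fold. In RQ minus WT the medians of the amino acid lists and of the tRNA synthetases lie between 0.19 and 0.32 and that of the ER chaperones at -0.20, while in MI minus WT these medians are below 0, before any correction for level.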

How the data were processed

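Total RNA of embryoid bodies (6 ug per array, day 7) was hybridized to Affymetrix arrays, 1 for each of RQ, MI and WT. The values are the log2 signals deposited by the authors for 45101 probe sets, and the submitters' processing notes name RMA and Partek, with no version, order or genome build given in the sources used here. RMA subtracts background, aligns the arrays and summarises the probes of a set, and compresses differences at low signal. The deposited columns shared a mean of 6.60 but not a distribution, with standard deviations of 1.17 in RQ, 1.06 in MI and 1.17 in WT. How they were aligned is not known here. Gene symbols came from the platform annotation: 34958 had 1 symbol, 932 several and 9211 none, and 34945 remained without controls.

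Differences of log2 values were computed with Python 3.11.15, pandas 2.3.3, numpy 2.4.6 and statsmodels 0.14.6 (lowess span 0.3, 3 robustness iterations). With 1 array per genotype no test was run. The number of arrays limits the precision, and scanner files and detection calls were not used here. The counting code was run on simulated arrays with known differences, which checks the code and not the spread between samples of a genotype. Named genes are the 10 members, and of each related list up to 3 past 2-fold in any comparison, or the largest difference where none was. Wars, Eprs, Iars, Eif2ak4 and Ppp1r15a were named outside this rule, as were the cell type markers. The members and lists were chosen with earlier results of these data known. Alternatives were other normalizations, level filters, probe set rules and fold limits. Promoters came from RefSeq tables of GRCm38.p6 and carry no measurement of this series.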

Additional observations from a re-analysis of the deposited data

Results flagged for a closer look

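Shmt2 was above WT in RQ and below WT in MI, by differences of 0.95 and -0.40, which set the variants apart by 1.35 on the log2 scale. With 1 array each this difference was not tested, and both values use the same WT array. After the lowess correction the difference between the variants was 1.10, and MI minus WT was -0.31. These values are from the brightest probe set. The pair of probe sets that read near 7 gave RQ minus MI of 0.29 and 0.32, and MI minus WT of -0.06 and -0.00. The mean of the 4 probe sets gave RQ minus MI of 0.79, short of 2-fold.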

How the results depend on the processing

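No paired analysis was possible because each genotype has 1 array. The count of genes past 2-fold among the 10 (2 in RQ against WT, 1 in MI against WT, 1 in RQ against MI) was unaltered by centring, by no level filter and by a filter on the higher array. In RQ against MI it was 2 with quantile normalization and 2 after the lowess correction, where Ddit3 joined Shmt2, and in RQ against WT Asns replaced Xbp1 under the first and joined it under the second. In MI against WT the count stayed at 1 under both, but the gene was Xbp1 in place of Ddit4. In RQ against WT it was 1 without _s_at, _x_at and _a_at probe sets, which leaves 8 genes and puts Xbp1 at 0.17. With a 1.5-fold limit the counts were 4, 3 and 4, and with a 3-fold limit 0, 0 and 0. A filter at the 75th percentile leaves 7 genes, without Atf3, Chac1 and Trib3, and gives medians of -0.11 in RQ against WT, -0.54 in MI against WT and 0.47 in RQ against MI. With means of probe sets Asns passed 2-fold in RQ against WT (1.03) and Xbp1 did not (0.88), Asns (1.01) took the place of Shmt2 (0.79) in RQ against MI, and all genes past 2-fold numbered 228 in RQ against WT, 238 in MI against WT and 166 in RQ against MI, in place of 383, 373 and 313. With the 1.5-fold limit these numbered 1340, 1248 and 1391, and with the 3-fold limit 108, 90 and 49. No called value of the 10 genes turned its sign under the alternatives run. Low signal limits Atf3, Chac1 and Trib3.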

Other observations

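Stress responses outside the ER were read from lists of cytosolic heat shock genes and of targets of the oxidative stress factor NRF2. The heat shock list had 8 genes above the filter and a median of -0.17 in RQ against WT. In MI against WT the median was -0.26 with 3 of 8 above 0 as deposited, but 0.19 with 5 of 8 above 0 after the lowess correction, so it has no settled direction. Hspa1a, an inducible HSP70 gene, read 6.46 in RQ, 6.69 in MI and 8.02 in WT. Hspa1b, its near-identical copy, read 7.62 in RQ, 9.0 in MI and 8.72 in WT, and since probes may be shared between these copies their split is uncertain. Hspa4, a relative that acts as an exchange factor of HSP70, read 11.002 in RQ and 10.75 in MI, against 9.92 in WT, and all 4 of its probe sets were above WT (0.11 to 1.38 in RQ, 0.01 to 0.84 in MI). Of 6 NRF2 targets none was past 2-fold, with medians of 0.09 in RQ and -0.04 in MI (-0.01 in MI after the correction). Hmox1, heme oxygenase, had the largest difference, with 7.07 in RQ and 7.11 in MI, against 7.86 in WT.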
